A study of Mus musculus with 8 samples.

Results

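The genes described here encode the enzymes that write, copy, protect and remove DNA methylation, in mouse embryos at the late 2-cell stage (CF-1, an outbred line). The 10 genes (Tet1, Tet2, Tet3, Dnmt1, Dnmt3a, Dnmt3b, Dnmt3l, Uhrf1, Zfp57 and Tdg) were chosen by name from 34976 gene symbols, and the transcript rows of each symbol, 86 in all, were summed. Of these genes, 9 passed the expression filter used for testing, a mean of at least 1 FPKM (fragments scaled to transcript length and library total), and Tdg did not.

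Med13-MO embryos had received, at the early 1-cell stage, a morpholino that the labels describe as aimed at the Med13 start site. MED13 is a subunit of the Mediator kinase module. Scr-MO embryos had received a scrambled morpholino at the same stage, so that the embryos of both groups were injected. Morpholinos are antisense oligomers that bind RNA and block translation or splicing without necessarily lowering the level of the RNA. Each group comprised 4 libraries, each made from a separate collection of 40 pooled embryos, and RNA was amplified before library construction. By its title, the study asks what MED13 does in activation of the zygotic genome. The loss of MED13 protein was not measured in these files.

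DNA methyltransferases add methyl groups to cytosines in CG dinucleotides. DNMT3A and DNMT3B set new marks, helped by the catalytically inactive DNMT3L, while DNMT1, guided to newly replicated DNA by UHRF1, copies existing ones. TET enzymes oxidise methylcytosine, and TDG can excise the most oxidised forms. After fertilisation most methylation is lost from both parental genomes, TET3 acts on the paternal genome in the zygote, and ZFP57 helps to keep methylation at imprinted regions.

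The libraries held 31378977 to 45748802 fragments in Med13-MO embryos and 33541914 to 48050262 fragments in Scr-MO embryos. These totals take the smallest step between FPKM values as 0.5 fragments, a size that was assumed. The 10 most abundant genes took 16.4% to 17.5% of the summed FPKM in Med13-MO libraries and 13.0% to 13.8% in 3 Scr-MO libraries, while Scr-MO 2 stood apart at 20.8%. Med13 mRNA averaged 42.2 ± 2.14 FPKM in Med13-MO and 41.3 ± 4.31 FPKM in Scr-MO embryos (SD, n = 4 each; exact two-sided permutation test, p = 0.629), which does not test the labels, since a morpholino can act without changing the mRNA. Markers of the 2-cell stage were present in every library, with a summed level of 403 to 647 FPKM in Med13-MO and 252 to 375 FPKM in Scr-MO embryos. Of the cumulus and granulosa markers, 13 of 14 had a mean under 1 FPKM, as did 9 of 10 sperm markers, the exceptions being Amhr2 and Odf2. Of the 7 oviduct markers 4 had a mean under 1 FPKM, and Ovgp1 was lower, at 2.18 ± 0.189 FPKM in Med13-MO and 3.49 ± 0.679 FPKM in Scr-MO embryos (limma, adjusted p = 0.0440). Of the 6 blood and immune markers 4 had a mean under 1 FPKM, and neither Cd68 nor Itgam, the other two, passed the test.

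Tet3 and Dnmt3l were higher in Med13-MO embryos, and no gene of the group passed the test in the other direction. Tet3 stood 2.76-fold higher (95% interval 2.08 to 3.65) and Dnmt3l 1.53-fold higher (1.16 to 2.02), both as fold changes of FPKM + 1. The Tet3 sum includes a short row of 469 bases, which alone stood 3.64-fold higher. The longest protein-coding row of Tet3 alone stood 2.28-fold higher (1.80 to 2.88). Tet1, at 0.621-fold, and Zfp57, at 1.39-fold, lay just outside the threshold of an adjusted p of 0.05. The maintenance pair Dnmt1 and Uhrf1 and the de novo enzyme Dnmt3a differed by less than the spread between libraries. Over all 11755 genes tested, 17.1% were called (9.29% higher and 7.81% lower), so that 2 calls among 9 genes lie near the background. Groups did not overlap for Tet3, Dnmt3l and Zfp57, all higher, and for Dnmt3b, lower, or 4 of 9 genes, against 21.6% of all genes tested. The median log2 fold change of the 9 genes was -0.02, and that of all genes was -0.06.

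**Figure D1:**
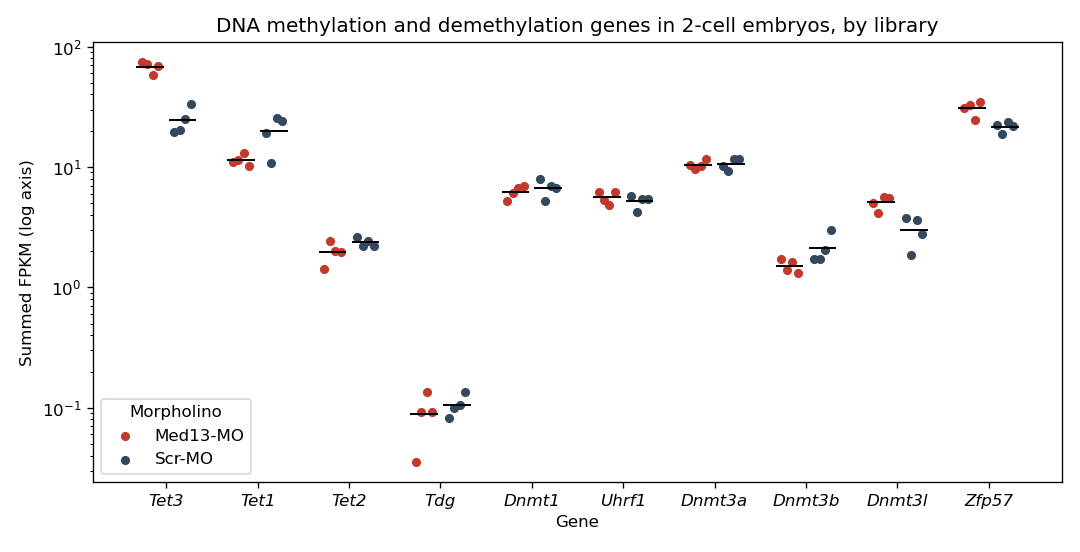
Summed FPKM (log axis) of the 10 genes in each Med13-MO (red, left) and Scr-MO (dark, right) library, with the mean of each group as a bar (n = 4 each). The Tet3 points lie at 58.0 to 73.9 FPKM in Med13-MO and 19.5 to 33.4 FPKM in Scr-MO embryos, while the points of Dnmt1, Dnmt3a and Uhrf1 overlap between the groups.

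The promoter windows of Tet3 and Dnmt3l are shown because these are the 2 genes that passed the test. Each window runs from 250 bases before to 50 after an annotated start, is taken from RefSeq (GRCm38.p6) and reads 5′ to 3′ on the strand of the gene, with CG dinucleotides, the target of the enzymes themselves, in capitals. The Tet3 window, chr6:83441629-83441928 on the minus strand, covers the start of the models Tet3-201 and Tet3-202. The other full-length coding model of Tet3 starts upstream, at base 83456392, and the model with the highest fold change at base 83459084. No window was taken at these upstream Tet3 starts. The Dnmt3l windows, on the plus strand, lie at chr10:78042037-78042336 (model Dnmt3l-205), chr10:78049592-78049891 (Dnmt3l-201) and chr10:78055085-78055384 (Dnmt3l-202, Dnmt3l-203 and Dnmt3l-206).
Tet3: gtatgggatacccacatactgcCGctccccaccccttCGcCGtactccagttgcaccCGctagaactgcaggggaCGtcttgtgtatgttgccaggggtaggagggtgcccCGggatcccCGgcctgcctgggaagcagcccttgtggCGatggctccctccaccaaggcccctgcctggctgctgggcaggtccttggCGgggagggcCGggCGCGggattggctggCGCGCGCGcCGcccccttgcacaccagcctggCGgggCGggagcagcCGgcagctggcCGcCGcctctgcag
Dnmt3l upstream: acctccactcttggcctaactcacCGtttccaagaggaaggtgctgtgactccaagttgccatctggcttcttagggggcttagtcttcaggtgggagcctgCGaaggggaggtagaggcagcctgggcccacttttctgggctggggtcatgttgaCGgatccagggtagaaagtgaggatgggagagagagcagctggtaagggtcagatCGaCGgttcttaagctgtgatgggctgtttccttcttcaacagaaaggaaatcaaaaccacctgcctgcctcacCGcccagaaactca
Dnmt3l middle: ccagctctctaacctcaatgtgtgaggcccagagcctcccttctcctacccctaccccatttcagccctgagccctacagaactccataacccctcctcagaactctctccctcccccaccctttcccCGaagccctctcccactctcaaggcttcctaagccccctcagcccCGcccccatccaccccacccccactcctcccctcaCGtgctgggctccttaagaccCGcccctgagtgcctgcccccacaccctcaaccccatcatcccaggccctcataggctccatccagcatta
Dnmt3l downstream: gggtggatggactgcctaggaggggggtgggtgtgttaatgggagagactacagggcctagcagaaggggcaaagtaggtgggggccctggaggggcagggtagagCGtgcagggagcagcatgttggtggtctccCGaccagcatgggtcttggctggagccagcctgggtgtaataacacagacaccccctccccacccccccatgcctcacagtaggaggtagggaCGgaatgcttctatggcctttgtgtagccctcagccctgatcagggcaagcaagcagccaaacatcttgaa

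The Tet3 window held 22 CG dinucleotides, more than 76.9% of all 32851 windows of this length, whose median was 7. The Dnmt3l windows held 6, 4 and 3, all below that median. A search of both strands for the NFY motif CCAAT, the NR5A2 motif AAGGTCA, the OBOX and OTX motif TAATCC, the E-box CACGTG and the TATA motif TATAAA found 1 CCAAT in the Tet3 window, a motif held by 37.4% of all windows. It found 1 CACGTG in the middle Dnmt3l window, a motif held by 7.15% of all windows. Among the other genes, the windows ranged from 2 CG dinucleotides at the most upstream Dnmt1 start to 57 at Tet2. No methylation was measured in these libraries, and the matches are descriptions of letters only.

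Among the oxidising enzymes, Tet3 (ENSMUSG00000034832, chromosome 6, 83362373 to 83459084, minus strand, GRCm38) is the TET gene supplied to the egg. Tet3 reached 73.9, 71.6, 58.0 and 69.4 FPKM in Med13-MO libraries 1 to 4, and 19.5, 20.3, 25.1 and 33.4 FPKM in Scr-MO libraries 1 to 4. The lowest Med13-MO library lay above the highest Scr-MO library. The means were 68.2 ± 7.09 FPKM in Med13-MO and 24.6 ± 6.36 FPKM in Scr-MO embryos (SD, n = 4 each), resting on 8364.5 to 13990.5 fragments per Med13-MO library and 4296 to 6229 per Scr-MO library. The log2 fold change was 1.46 ± 0.19 (SE; limma with Benjamini-Hochberg adjustment, adjusted p = 0.00053), ranked 117 of 11755 genes by size from the top. The call held in all 19 alternative settings, where the log2 fold change lay between 1.19 and 1.86. In whole embryos, RNA carried by fewer cells and less RNA per cell cannot be told apart, and FPKM is a share of each library.

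Some oocyte markers were also higher in Med13-MO embryos, 7 of the 15 tested, with 0 lower, against 9.29% of all genes higher and 7.81% lower. The summed level of the list was 406 to 541 FPKM in Med13-MO and 142 to 179 FPKM in Scr-MO embryos. Oosp1 contributed most, at 189 ± 16.4 FPKM in Med13-MO and 38.9 ± 7.67 FPKM in Scr-MO embryos (SD, n = 4 each). The other 8 tested markers did not pass, among them Npm2 and Kit, with negative log2 fold changes of -0.44 and -0.40. Of the 2-cell markers, 10 of 19 tested were higher and 2 lower. The part of these markers in the Tet3 result was not tested. No listed marker of any cell type was at 0 in all libraries.

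Tet1 (ENSMUSG00000047146, chromosome 10, 62804570 to 62899118, minus strand) encodes a TET enzyme best known from embryonic stem cells and the germ line. Tet1 measured 10.9, 11.5, 13.1 and 10.1 FPKM in Med13-MO libraries, and 19.2, 10.8, 25.5 and 23.9 FPKM in Scr-MO libraries. Scr-MO 2 lay within the Med13-MO range, and the other 3 Scr-MO libraries lay above it. The means were 11.4 ± 1.26 FPKM in Med13-MO and 19.8 ± 6.60 FPKM in Scr-MO embryos (SD, n = 4 each). The log2 fold change was -0.69 ± 0.23 (SE; limma, adjusted p = 0.0600). Without Scr-MO 2 it was -0.94, with an adjusted p of 0.0039, and with protein-coding rows alone it was -0.62, with an adjusted p of 0.0462. Tet1 passed in 5 of 19 alternative settings, and its adjusted p (limma) reached 0.174 in the rest. Of the 8 fits that left out 1 library, 1 passed, and adjusted p reached 0.161 in the others.

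Tet2 (ENSMUSG00000040943, chromosome 3, 133463679 to 133545139, minus strand), the TET gene prominent in blood cells, was far less abundant. It measured 1.43 to 2.43 FPKM in Med13-MO and 2.21 to 2.61 FPKM in Scr-MO embryos, and the ranges overlapped (limma, adjusted p = 0.383). The 95% interval of its fold change ran from 0.702 to 1.09.

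The makeup of TET mRNA, described without a test because its parts were tested above, separated the groups in every library. Tet3 made up 85.7%, 83.7%, 79.3% and 85.1% of the summed TET FPKM in Med13-MO libraries and 47.2%, 60.9%, 47.3% and 56.1% in Scr-MO libraries. Tet1 made up 14.1% ± 2.59 in Med13-MO and 41.8% ± 7.12 in Scr-MO embryos (SD, n = 4 each). The ratio of Tet3 to Tet1 was 4.42 to 6.84 in Med13-MO and 0.982 to 1.88 in Scr-MO libraries. With fragments divided by merged exonic bases in place of the summed FPKM, the share of Tet3 was 74.1% to 80.6% in Med13-MO and 43.4% to 53.9% in Scr-MO libraries. The 3 genes together reached 81.6 ± 6.04 FPKM in Med13-MO and 46.8 ± 11.7 FPKM in Scr-MO embryos, while Dnmt1, Dnmt3a and Dnmt3b together reached 18.2 ± 1.25 FPKM in Med13-MO and 19.5 ± 2.24 FPKM in Scr-MO embryos, with overlapping ranges.

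**Figure D2:**
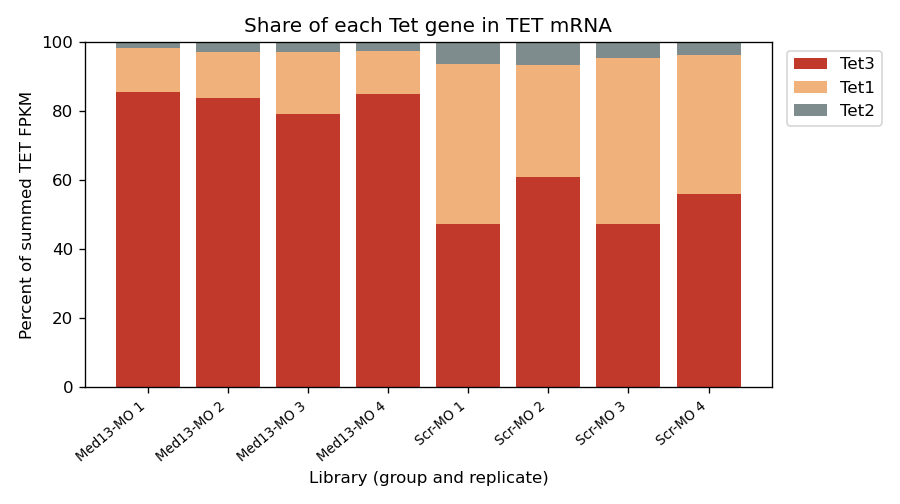
Stacked bars show the percentage of the summed FPKM of Tet1, Tet2 and Tet3 that each gene contributed in each library, Med13-MO at the left. Tet3 contributed at least 79.3% in Med13-MO libraries and at most 60.9% in Scr-MO libraries.

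Each of the 4 Tet3 transcript models in the table was higher in Med13-MO embryos, against a background of 15.7% of 21052 tested transcript rows called (8.17% higher and 7.57% lower). Tet3-202, the 11-exon coding model of 10904 bases with the long last exon, measured 20.4, 18.02, 15.02 and 16.2 FPKM in Med13-MO and 6.89, 6.42, 7.08 and 7.84 FPKM in Scr-MO libraries. Tet3-203, the other full-length coding model, averaged 11.3 ± 1.18 FPKM in Med13-MO and 4.72 ± 1.10 FPKM in Scr-MO embryos (SD, n = 4 each). The noncoding model Tet3-201 averaged 17.9 ± 2.16 FPKM in Med13-MO and 7.20 ± 2.03 FPKM in Scr-MO embryos.

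Tet3-204, a 3-exon coding model of 469 bases that begins at the most upstream start, 17409 bases before that of Tet3-202, had the highest fold change of these models. It measured 22.2, 23.7, 18.7 and 22.1 FPKM in Med13-MO and 3.20, 4.54, 4.90 and 9.73 FPKM in Scr-MO libraries, so that the groups stood apart. The row rested on 274.5 to 474 fragments per Med13-MO library and 56.5 to 153 per Scr-MO library. The whole gene rested on 8364.5 to 13990.5 and 4296 to 6229. Yet this short row gave a mean of 21.6 of the summed 68.2 FPKM in Med13-MO and 5.59 of 24.6 FPKM in Scr-MO embryos. Only the first exon of Tet3-204, of 78 bases, lies outside the exons of the other models, and use of the upstream start was not tested. The log2 fold changes were 1.86 ± 0.24 for Tet3-204, 1.23 ± 0.19 for Tet3-201, 1.19 ± 0.16 for Tet3-202 and 1.12 ± 0.17 for Tet3-203 (SE; limma, adjusted p between 0.00043 and 0.00145), and all 4 calls held in all 16 settings tried. The ratio of Tet3-204 to Tet3-202 was 1.25 ± 0.121 in Med13-MO and 0.776 ± 0.329 in Scr-MO embryos. The ratios overlapped through Scr-MO 4, at 1.24 (exact two-sided permutation test, p = 0.0571, smallest possible 0.0286), and the pair was chosen after its values were seen.

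**Figure D3:**
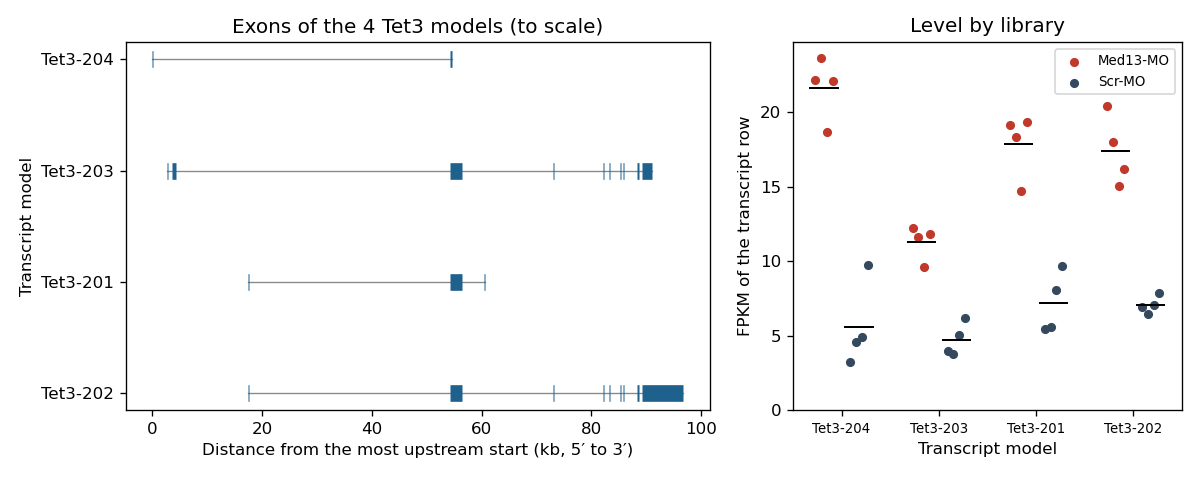
The left panel draws the exons of the 4 Tet3 models to scale by distance from the most upstream start (kb), and the right panel gives the FPKM of each model per library with group means as bars (Med13-MO red, Scr-MO dark). In each model every Med13-MO point lies above every Scr-MO point.

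Models of a gene share exons, so a fragment had to be placed in 1 of them or counted in several. In 428 genes, a pair of models shared at least 98% of their exonic bases. With the assumed step of 0.5 fragments, the pair differed by a median of 0.862 times the square root of their summed fragments. A larger step would raise this value. Separate fragments would give 0.674 and fragments counted in both would give close to 0. Model levels such as those of Tet3 therefore depend on a placement whose method was not given in the sources used here. Of the 28 rows of the 10 genes that could be tested, 6 were higher and 1 was lower, against 8.17% higher and 7.57% lower over all rows tested. The higher rows were all models of Tet3 or Zfp57, and models of 1 gene are not separate results.

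The lower row was Tet1-201, a coding model of 13986 bases. It measured 3.12, 3.37, 3.35 and 2.59 FPKM in Med13-MO and 5.30, 3.54, 6.11 and 5.95 FPKM in Scr-MO libraries, without overlap. Its log2 fold change was -0.58 ± 0.17 (SE; limma, adjusted p = 0.0340), and the call was lost without any single library other than Scr-MO 2, at adjusted p up to 0.102. The other coding model of similar length, Tet1-206, lay just above the threshold (limma, adjusted p = 0.0587).

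The mRNA of TDG, the glycosylase that follows the TET enzymes, was barely represented. Tdg (ENSMUSG00000034674, chromosome 10, 82629828 to 82650799, plus strand) measured 0.0354, 0.0931, 0.134 and 0.0922 FPKM in Med13-MO and 0.0820, 0.09996, 0.105 and 0.134 FPKM in Scr-MO libraries, from 4.5 to 6.5 fragments per Med13-MO library and 5.5 to 14.5 per Scr-MO library. The groups overlapped, and a difference was not detectable with so few fragments (exact two-sided permutation test on log2(FPKM + 1), p = 0.514, smallest possible 0.0286). A processed pseudogene matches the Tdg model Tdg-208 at 98.7% over 2968 bases and another at 99.3% over 1193 bases. The first averaged 0.0078 FPKM in Med13-MO and 0.0082 FPKM in Scr-MO embryos. The second averaged 0.0101 FPKM in Med13-MO and 0 FPKM in Scr-MO embryos. Further processed pseudogenes match at 99.2% over 1194 bases and at 99.0% over 203 bases but had no rows among those used, so reads placed there could not be seen. The gene Glt8d2 matches Tdg-208 at 100% over 367 bases. Whether reads of Tdg were split or lost was not tested.

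Dnmt1 (ENSMUSG00000004099, chromosome 9, 20907209 to 20959888, minus strand), the maintenance methyltransferase, measured 5.23, 6.04, 6.71 and 6.91 FPKM in Med13-MO and 7.98, 5.23, 6.98 and 6.69 FPKM in Scr-MO libraries. The groups overlapped (limma, adjusted p = 0.729), with a 95% interval of the fold change of 0.738 to 1.195. Its partner Uhrf1 (ENSMUSG00000001228, chromosome 17, 56303321 to 56323486, plus strand) measured 4.79 to 6.26 FPKM in Med13-MO and 4.22 to 5.72 FPKM in Scr-MO embryos, also overlapping (limma, adjusted p = 0.673; interval 0.855 to 1.35). None of the 3 tested Dnmt1 rows and none of the 4 tested Uhrf1 rows was called. A pseudogene matches Uhrf1-201 at 98.3% over 1590 bases and stood near 0.06 FPKM in both groups.

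Dnmt3a (ENSMUSG00000020661, chromosome 12, 3806007 to 3914443, plus strand), is the de novo enzyme that sets methylation in growing oocytes. It measured 10.4, 9.69, 10.3 and 11.6 FPKM in Med13-MO and 10.2, 9.29, 11.6 and 11.6 FPKM in Scr-MO libraries. The groups covered nearly the same range (limma, adjusted p = 0.938; interval of the fold change 0.794 to 1.23), and none of its 5 tested rows was called.

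Dnmt3b (ENSMUSG00000027478, chromosome 2, 153649450 to 153687730, plus strand), the de novo enzyme of the implanting embryo, was scarce. It measured 1.71, 1.39, 1.62 and 1.33 FPKM in Med13-MO and 1.73, 1.74, 2.04 and 2.996 FPKM in Scr-MO libraries. The groups touched without overlapping, yet the log2 fold change of -0.30 ± 0.16 did not pass (SE; limma, adjusted p = 0.204). Of the 2.996 FPKM in Scr-MO 4, 1.30 FPKM lay in a retained-intron row, Dnmt3b-211, and with protein-coding rows alone the log2 fold change was -0.16. Dnmt3c, a close relative listed under an older symbol, matches the model Dnmt3b-210 at 93.9% over 1434 bases and averaged 0.203 FPKM in Med13-MO and 0.121 FPKM in Scr-MO embryos.

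Dnmt3l (ENSMUSG00000000730, chromosome 10, 78041947 to 78063622, plus strand), the cofactor required for maternal imprints in oocytes, measured 4.99, 4.16, 5.61 and 5.54 FPKM in Med13-MO and 3.80, 1.87, 3.63 and 2.78 FPKM in Scr-MO libraries. Every Med13-MO library lay above every Scr-MO library. The means were 5.07 ± 0.669 FPKM in Med13-MO and 3.02 ± 0.884 FPKM in Scr-MO embryos (SD, n = 4 each), from 236.5 to 366.5 fragments per Med13-MO library and 117.5 to 246.5 per Scr-MO library. The log2 fold change was 0.62 ± 0.18 (SE; limma, adjusted p = 0.0371). The call held without Scr-MO 1 or Scr-MO 3 and was lost without any one of the other 6 libraries, at adjusted p up to 0.0981. Over all alternative settings that tested it, Dnmt3l passed in 9 of 16, and its adjusted p (limma) reached 0.106, without a filter. Single rows of Dnmt3l, Dnmt3b, Tet2 and Tdg were all under the mean of 1 FPKM and were not tested.

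Zfp57 (ENSMUSG00000036036, chromosome 17, 37001163 to 37010635, plus strand), encodes the zinc finger protein that binds methylated imprinted regions. It measured 31.0, 32.8, 24.4 and 34.6 FPKM in Med13-MO and 22.2, 18.9, 23.6 and 22.03 FPKM in Scr-MO libraries. The groups did not overlap, with Med13-MO 3 closest to the Scr-MO range. The means were 30.7 ± 4.47 FPKM in Med13-MO and 21.7 ± 1.95 FPKM in Scr-MO embryos (SD, n = 4 each), a log2 fold change of 0.47 ± 0.16 (SE; limma, adjusted p = 0.0585). It passed under median-ratio scaling, quantile normalization and sample weights and without Med13-MO 3, at adjusted p (limma) of 0.0238 to 0.0491. These were 4 of the 19 alternative settings. Elsewhere adjusted p rose as far as 0.250, with the longest protein-coding row alone (log2 fold change 0.24). Removing any library other than Med13-MO 3 gave no call for Zfp57 (limma, adjusted p up to 0.161). Of its 8 tested rows, Zfp57-204 (adjusted p = 0.0242) and Zfp57-206 (adjusted p = 0.0351) were higher by limma, and the other 6 had positive fold changes that did not pass. When 1 library was left out, Zfp57-204 lost its call without Med13-MO 2, Med13-MO 4 or Scr-MO 4 (adjusted p up to 0.0867). Zfp57-206 kept it only without Med13-MO 3, Med13-MO 4 or Scr-MO 1, and its adjusted p reached 0.120 in the other 5 fits.

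**Figure D4:**
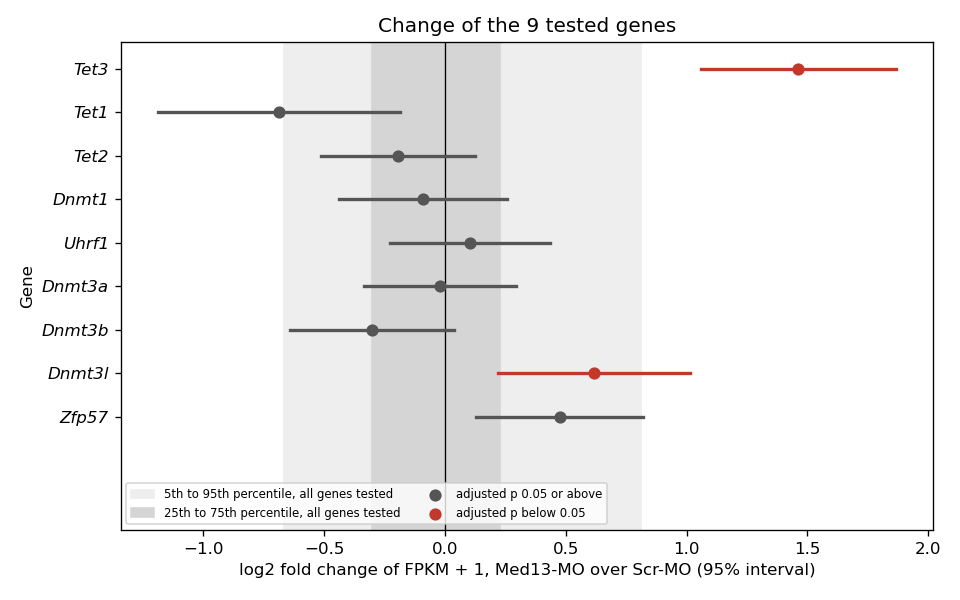
Points give the log2 fold change of FPKM + 1 (Med13-MO over Scr-MO) of the 9 tested genes and lines its 95% interval, with red for an adjusted p below 0.05 and grey bands for the spread of all genes tested. Tet3, at 1.46, lies beyond the 95th percentile of all genes, and the interval of Dnmt3l, at 0.62, overlaps that of Zfp57.

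By mean summed FPKM, the genes ran in both groups from Tet3 through Zfp57, Tet1, Dnmt3a, Dnmt1, Uhrf1, Dnmt3l, Tet2 and Dnmt3b to Tdg. Library ranges of neighbours overlapped in Scr-MO embryos for Tet3 and Zfp57, Zfp57 and Tet1, Tet1 and Dnmt3a, Dnmt1 and Uhrf1, Dnmt3l and Tet2, and Tet2 and Dnmt3b. In Med13-MO embryos they overlapped for Tet1 and Dnmt3a, Dnmt1 and Uhrf1, Uhrf1 and Dnmt3l, and Tet2 and Dnmt3b. This order of means depends on how length is counted, since overlapping rows are summed, 18 of them for Dnmt3a and 3 for Dnmt1. When all fragments of a gene were instead divided by the merged exonic bases of its models, a measure added after the data were seen, the order ran from Tet3 through Zfp57, Tet1, Dnmt1, Uhrf1, Dnmt3l, Dnmt3a, Dnmt3b and Tet2 to Tdg in Med13-MO embryos. In Scr-MO embryos it ran from Tet1 through Tet3, Zfp57, Dnmt1, Uhrf1, Dnmt3a, Dnmt3b, Dnmt3l and Tet2 to Tdg.

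On the merged-exon scale Tet3 reached 26.0 ± 3.03 FPKM in Med13-MO and 10.5 ± 1.58 FPKM in Scr-MO embryos (SD, n = 4 each), and the groups again did not overlap. Zfp57 reached 11.1 ± 1.65 FPKM in Med13-MO and 8.01 ± 0.775 FPKM in Scr-MO embryos. Tet1 reached 6.70 ± 0.745 FPKM in Med13-MO and 11.2 ± 2.88 FPKM in Scr-MO embryos, where its range overlapped that of Tet3. Dnmt1 stood above Dnmt3a on this scale, at 5.41 ± 0.662 against 2.06 ± 0.129 FPKM in Med13-MO embryos and 5.85 ± 0.984 against 2.13 ± 0.283 FPKM in Scr-MO embryos. The library ranges of neighbours overlapped in Med13-MO embryos for Tet1 and Dnmt1, Dnmt1 and Uhrf1, and Dnmt3l and Dnmt3a. In Scr-MO embryos they overlapped for Tet1 and Tet3, Zfp57 and Dnmt1, and Dnmt3b and Dnmt3l.

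The genes whose log2(FPKM + 1) followed Tet3 most closely over the 8 libraries were Ptov1 (Pearson r = 0.991), Gm1965 (0.989), Psmf1 (0.987), a proteasome inhibitor, Trappc9 (0.984) and Zp3 (0.983), a protein of the zona pellucida around the egg. The libraries form the 2 groups, so each r includes the difference between groups. Gm1965 averaged 222 ± 46.0 FPKM in Med13-MO and 37.1 ± 12.5 FPKM in Scr-MO embryos, and Zp3 averaged 23.0 ± 1.17 FPKM in Med13-MO and 13.8 ± 2.01 FPKM in Scr-MO embryos (SD, n = 4 each).

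The wider pathway was read through 5 lists, each set against 17.1% of all genes called and a median log2 fold change of -0.06. Of the methyl-CpG and other CpG-binding proteins, 10 of 13 were tested, 2 were higher and 0 lower (20%, median -0.02). Mbd5, of the methyl-CpG-binding domain family but not known to bind methylated DNA, averaged 27.02 ± 2.35 FPKM in Med13-MO and 15.7 ± 1.60 FPKM in Scr-MO embryos (limma, adjusted p = 0.00605). Kdm2b, a histone demethylase that binds unmethylated CG sites, averaged 16.4 ± 2.10 FPKM in Med13-MO and 11.1 ± 0.548 FPKM in Scr-MO embryos (adjusted p = 0.0314).

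Of the deamination, glycosylase and base excision repair genes, which complete the removal route that TDG begins, 17 of 24 were tested, 0 were higher and 3 lower (17.6%, median -0.11). Ung, the uracil glycosylase, averaged 14.8 ± 2.17 FPKM in Med13-MO and 30.7 ± 5.18 FPKM in Scr-MO embryos, a log2 fold change of -1.01 ± 0.18 (SE; limma, adjusted p = 0.00324). The DNA ligase Lig3 was lower, at 4.28 ± 0.663 FPKM in Med13-MO and 7.16 ± 1.78 FPKM in Scr-MO embryos (adjusted p = 0.0356). The abasic site endonuclease Apex1 was lower too, at 9.52 ± 2.59 FPKM in Med13-MO and 14.5 ± 1.08 FPKM in Scr-MO embryos (adjusted p = 0.0472).

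Of the partners and regulators of the TET and DNMT enzymes, 20 of 23 genes in the table were tested, 0 were higher and 3 lower (15%, median -0.22). Arid4b, a chromatin protein tied to imprinting control, averaged 7.60 ± 1.12 FPKM in Med13-MO and 21.3 ± 3.27 FPKM in Scr-MO embryos (limma, log2 fold change -1.37 ± 0.16, adjusted p = 0.000336). The histone methyltransferase Ehmt2 averaged 2.46 ± 0.291 FPKM in Med13-MO and 4.48 ± 1.04 FPKM in Scr-MO embryos (adjusted p = 0.0210). Cdca7, partner of the remodeller HELLS, averaged 1.42 ± 0.394 FPKM in Med13-MO and 2.62 ± 0.735 FPKM in Scr-MO embryos, with overlapping ranges (adjusted p = 0.0452). Dppa3, which guards maternal methylation against TET3 and was named here after its values were seen, averaged 536 ± 119 FPKM in Med13-MO and 557 ± 58.2 FPKM in Scr-MO embryos, with overlapping ranges (adjusted p = 0.802).

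Of the genes that supply the methyl donor and 2-oxoglutarate, the TET cosubstrate, 11 of 16 were tested, 1 was higher and 1 lower (18.2%, median -0.15). Mat2b, the regulatory subunit of methionine adenosyltransferase, averaged 36.4 ± 5.63 FPKM in Med13-MO and 67.9 ± 7.98 FPKM in Scr-MO embryos (limma, adjusted p = 0.00476). Shmt2, the mitochondrial serine hydroxymethyltransferase, averaged 2.94 ± 0.585 FPKM in Med13-MO and 1.40 ± 0.651 FPKM in Scr-MO embryos (adjusted p = 0.0246).

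Of the imprinted genes, 20 of 34 in the table were tested, 2 were higher and 4 lower (30%, median -0.12). Mest averaged 20.03 ± 4.37 FPKM in Med13-MO and 8.75 ± 0.951 FPKM in Scr-MO embryos (limma, adjusted p = 0.0018), and Trappc9 averaged 3.94 ± 0.648 FPKM in Med13-MO and 1.28 ± 0.487 FPKM in Scr-MO embryos (adjusted p = 0.00162). Usp29, at 25.7 ± 1.88 FPKM in Med13-MO and 48.2 ± 10.7 FPKM in Scr-MO embryos (adjusted p = 0.00847), was lower. Igf2r, the maternally expressed receptor that clears IGF2, averaged 10.5 ± 2.66 FPKM in Med13-MO and 18.2 ± 3.31 FPKM in Scr-MO embryos (adjusted p = 0.0219). Impact was lower as well, at 1.30 ± 0.549 FPKM in Med13-MO and 2.997 ± 1.012 FPKM in Scr-MO embryos (adjusted p = 0.0311). Grb10, a growth-limiting adaptor, averaged 2.42 ± 0.452 FPKM in Med13-MO and 4.42 ± 1.41 FPKM in Scr-MO embryos (adjusted p = 0.0442). The ranges of these last 3 genes overlapped between the groups. Of the 16 genes called in these lists, 7 were called in all 8 fits that left out 1 library: Arid4b, Mat2b, Mbd5, Mest, Trappc9, Ung and Usp29. The other 9 were called in 1 to 3 of the 8. The table gives one summed value per gene, so the parental allele of a transcript was not seen.

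**Figure D5:**
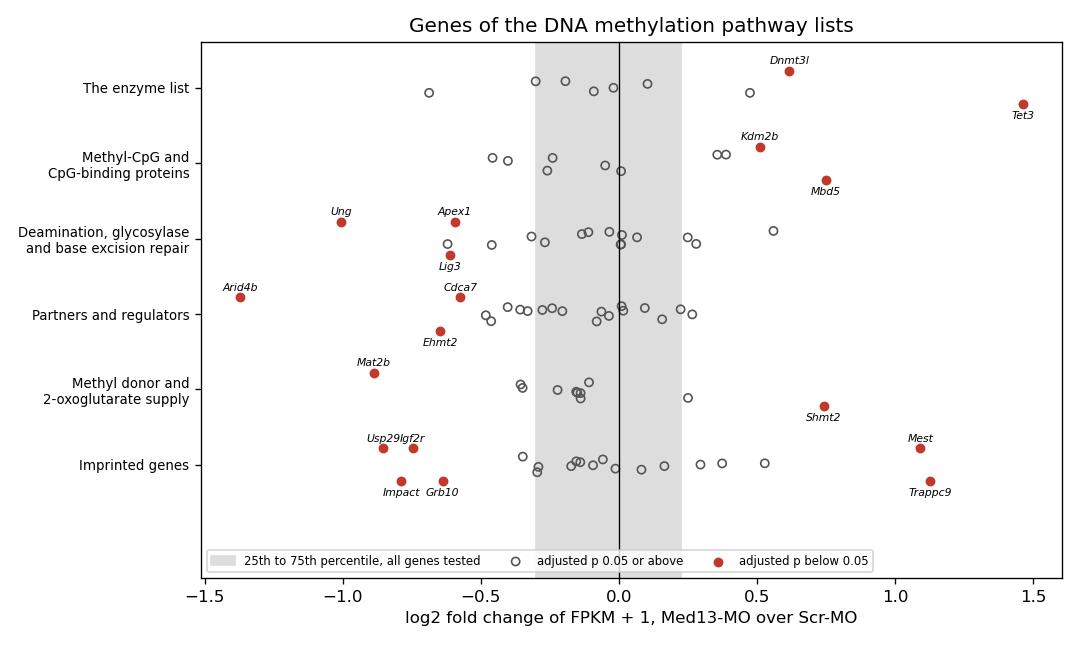
Each point is a tested gene of the enzyme list or of one of 5 pathway lists, placed by its log2 fold change of FPKM + 1 (Med13-MO over Scr-MO), filled and named where the adjusted p is below 0.05, with the grey band marking the 25th to 75th percentile of all genes. Tet3, at 1.46, and Arid4b, at -1.37, lie at the 2 ends.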

How the data were processed

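The authors deposited 1 table of FPKM values with 97496 transcript rows for 8 libraries, 4 Med13-MO and 4 Scr-MO. The aligner BWA and the build mm10 are named, per the submitters' processing notes. Neither the version of BWA nor the method of counting, its annotation or its use of strand was given in the sources used here. In 3758 rows, those whose symbol holds a hyphen, values are moved by 1 column, and these rows, none of them of the 10 genes, were left out, leaving 93738. Transcript names, lengths and coordinates came from GENCODE M21 (GRCm38, the assembly of mm10), to which 98.7% of rows matched. No value column was left unmatched (0). Replicate numbers follow accession order and only name libraries. Per the labels' protocols the replicates are separate collections, so p-values measure the spread between collections.

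In each library 94.9% to 95.3% of low values were, within 0.01 of a step, multiples of a smallest step. That step was taken as 0.5 fragments, a size that the values do not settle. Library totals and all fragment numbers rest on it, and a larger step would raise them in proportion. The amplified reads carry no molecular identifiers, and fragment numbers cover counting error only. Rows were summed by symbol, genes with a mean of at least 1 FPKM were kept, and log2(FPKM + 1) was tested with limma 3.58.1 in R 4.3.3 (mean-variance trend, two-sided, Benjamini-Hochberg over all 11755 genes or 21052 rows), which understates the change of low genes. Med13 and Tdg were tested by exact permutation over 70 assignments. Similar copies were sought with blastn 2.17.0. The limma fit was tried on simulated data.

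The text names the 10 genes, up to 5 called genes per list and direction, the 5 genes most like Tet3, and Med13. The genes and lists were chosen with earlier results of these data known. Alternatives changed the pseudocount, filter, scaling, trend, weights, the rows summed and the libraries, and the longest protein-coding row and the merged-exon level were added after the data were seen.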

Additional observations from a re-analysis of the deposited data

How the results depend on the processing

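The log2 fold change of Tet3 kept its direction and its call in every alternative run. The number of genes called, 2010 in the analysis reported, was 1137 with a mean FPKM of at least 5, 1012 without a filter, 4336 with sample weights (1712 higher and 2624 lower), 1240 with the longest protein-coding row alone, and 956 to 2404 when 1 library was left out. Without Scr-MO 2, 1051 genes were higher and 1353 lower. Of the 10 genes, 2 were called in the analysis reported, 1 (Tet3) with a mean FPKM of at least 5, without a filter, with the highest row or with the longest protein-coding row, 3 (Tet1 added) with protein-coding rows alone, 4 (Tet1 and Zfp57 added) under median-ratio scaling or quantile normalization, 5 (Dnmt3b also) with sample weights, and 1 to 2 when 1 library was left out. Dnmt3l, under the raised filter and in single rows, could not be tested. The rows called, 7, were 4 with a mean FPKM of at least 5 or without a filter and 4 to 9 when 1 library was left out. Directions within the spread turned for Dnmt3a (0.036 under median-ratio scaling, 0.0062 under quantile normalization, 0.0037 with the highest row, and -0.078 to 0.021 when 1 library was left out) and Uhrf1 (-0.011 with sample weights). They also turned for the log2 difference of Tdg, -0.042 to 0.0018, and of Med13, -0.0011 to 0.101, when 1 library was left out. The cause of these shifts was not tested. No paired analysis was possible because the labels give no replicate numbers that the groups share. The library numbers in the titles alternate between the groups, but the labels do not say that neighbouring numbers share a collection, and no pairs were made from them. The comparison of Tdg is limited by its few fragments, 4.5 to 14.5 per library, and the part of its near-identical pseudogenes was not tested. The order of levels between genes changes with the length used, as described for the merged exons.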
